A study of Mus musculus with 12 samples.

Results

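Genes at several loci linked to late-onset Alzheimer's disease are expressed by microglia, and 9 of them besides *Trem2* are described here: *Bin1*, *Sorl1*, *Inpp5d*, *Plcg2*, *Cd2ap*, *Ptk2b*, *Rin3*, *Mef2c* and *Abca7*. They were listed by name as 9 of the 48623 genes in the table, and each symbol was matched through its mouse Ensembl identifier. The libraries came from primary microglia of newborn C57BL/6J mice, either wild type (WT) or carrying R47H, an arginine change in the TREM2 receptor, on both *Trem2* alleles as a knock-in (KI). Each of 6 cultures, 3 per genotype, was sequenced untreated and with interleukin-4 (IL-4), a cytokine that drives an anti-inflammatory state, given at 20 ng/ml for 48 h, so that there were 4 groups of 3 libraries. The WT cultures were T13, T33 and T43, and the KI cultures were T15, T22 and T32; values below follow that order. The study describes the WT mice of this experiment as littermates of the KI mice, and pups of KI litters were cultured separately and genotyped afterwards; the labels do not say which cultures shared a litter.

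As background, these risk genes fall into 4 kinds of function. BIN1 bends membranes, SORL1 is a sorting receptor that carries cargo between endosomes and the Golgi, CD2AP links membrane receptors to actin, and RIN3 activates small GTPases of early endosomes, so that all act in endocytic traffic. INPP5D (SHIP1) removes a phosphate from the lipid made by PI3-kinase and so restrains signalling by receptors such as TREM2, PLCG2 is a phospholipase that carries the signal of those receptors to calcium and protein kinase C, and PTK2B (PYK2) is a calcium-sensitive tyrosine kinase of the adhesion family. MEF2C is a transcription factor of the microglial programme, and ABCA7 moves lipids across membranes.

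The values are TPM, a share of all transcripts, which scale each gene by its length and each library to 1000000, so that levels of different genes can be compared but the reads behind a value are not kept. Between 20750 and 23945 genes were above 0 in a library. *Trem2* was lower in KI cultures, with 1328 to 1886 TPM in untreated WT libraries and 325 to 770 TPM in untreated KI libraries. Averaged over both treatments, its log2 difference was -1.43 (SE 0.19, adjusted p = 0.00763, limma). The labelled cell type was checked against 20 microglia marker genes, whose summed level was 36865 to 38014 TPM in untreated WT and 16166 to 31653 TPM in untreated KI libraries, and 40329 to 50366 TPM and 26203 to 35499 TPM after IL-4. Much of that sum is from genes that other macrophages also express, such as *Tyrobp* and *C1qa*. Of the markers more specific to microglia, *Tmem119* had group means of 49.8 to 71.9 TPM, *P2ry12* of 10.3 to 23.6 TPM and *Siglech* of 0.127 to 2.40 TPM. Among 10 border macrophage and monocyte markers, *Ms4a7* had group means of 580 to 1281 TPM and *Pf4* of 89.9 to 234 TPM, while *Cd163*, *Lyve1*, *Ly6c2*, *Plac8* and *S100a9* stayed under 1 TPM in every library. Culture T15 stood apart. The summed level of 12 astrocyte markers was 4960 TPM in its untreated library and 3808 TPM in its IL-4 library, against 177 to 718 TPM in the other 10 libraries, and *Gjb6* stayed under 1 TPM in every library. Fibroblast and mural markers summed to 142 to 328 TPM in untreated WT and 1067 to 1327 TPM in untreated KI libraries. After IL-4 they summed to 238 to 617 TPM and 704 to 1198 TPM, with *Myh11* and *Rgs5* under 1 TPM throughout. Most of each sum was *Acta2* and *Tagln*, with group means of 660 and 474 TPM in untreated KI. The collagens *Col1a1*, *Col1a2* and *Col3a1* were higher in KI when untreated (15.5, 15.8 and 16.6 TPM against 3.66, 3.33 and 4.48 TPM). After IL-4 their group means were higher in WT (33.1, 30.0 and 23.3 TPM against 14.0, 10.3 and 9.53 TPM), with an SD in WT above each mean. The study also counted stained cells and reports that the share of microglia did not differ substantially between WT and homozygous KI cultures, with or without IL-4. Its text does not say whether the sequenced cultures were among those counted. In bulk RNA alone, fewer microglia in a culture and less RNA of a gene per microglial cell cannot be told apart.

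All 9 risk genes were detected in all 12 libraries and passed the expression filter, a mean above 1.5 on the log2(TPM + 1) scale, with the 11204 genes tested. *Bin1* had the highest mean level over the 12 libraries (147 TPM, above 91.7% of the genes tested), followed by *Inpp5d* (96.2 TPM), *Mef2c* (91.9 TPM), *Ptk2b* (72.3 TPM) and *Plcg2* (47.7 TPM). *Sorl1* (13.6 TPM), *Rin3* (8.72 TPM), *Abca7* (5.43 TPM) and *Cd2ap* (4.97 TPM) lay well below these by mean. The lowest libraries of *Plcg2* (28.6 TPM) and *Inpp5d* (57.9 TPM) were still above the highest library of *Rin3* (13.2 TPM). In culture T15, however, *Sorl1* (36.4 TPM untreated and 41.0 TPM after IL-4) was above *Plcg2* (28.6 and 29.3 TPM), and these libraries raised its mean. The library ranges of *Bin1* (92.3 to 204 TPM) and *Inpp5d* (57.9 to 136 TPM) overlapped, as did those of *Inpp5d*, *Mef2c* and *Ptk2b*, so their order was not fixed beyond the spread between libraries. The steadiest genes within groups were *Bin1*, *Ptk2b* and *Cd2ap*, with a within-group SD of 0.24, 0.25 and 0.27 on the log2 scale, while *Abca7* (0.86) and *Sorl1* (0.91) varied more than the median gene tested (0.47).

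**Figure D1:**
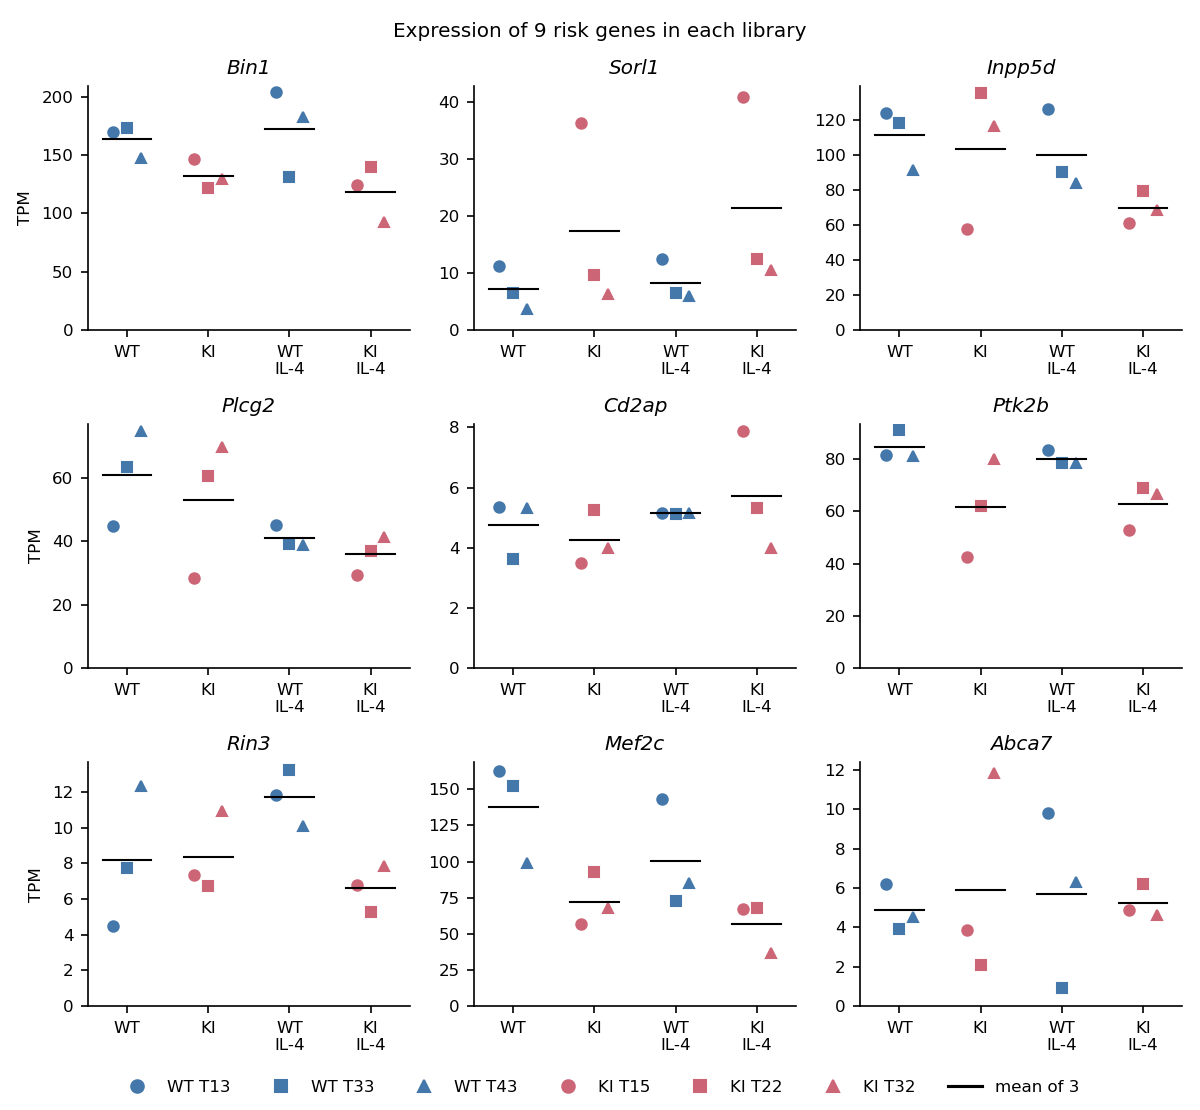
Level of each of the 9 genes in TPM (vertical axes start at 0) in every library, with WT in blue, KI in red, 1 symbol per culture and a line at the mean of the 3 libraries of a group. For *Mef2c* and *Ptk2b* the KI points lie under the WT points within each treatment, and the *Sorl1* panel is dominated by culture T15, at 36.4 and 41.0 TPM.

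The windows around the annotated starts of *Mef2c*, *Inpp5d* and *Plcg2* are shown because these 3 genes were lower after IL-4 in the same 4 cultures, as described further on. Each runs from 250 bases before to 50 bases after a transcript start (RefSeq, GRCm38.p6, plus strand), and capitals mark 2 motifs searched on both strands: TTCNNNNGAA, the spacing of STAT6, the transcription factor that IL-4 activates, and GAGGAA, a core bound by PU.1, the myeloid lineage factor. The *Inpp5d* window (chr1:87620062-87620361) held 1 STAT6 spacing, whose first base lay 124 bases before the start, and 2 PU.1 cores, 1 of them 20 bases before the start and the other on the minus strand 3 bases after it. The *Plcg2* window (chr8:117498025-117498324) held 1 STAT6 spacing, 192 bases before the start. The most upstream *Mef2c* window (chr13:83503784-83504083) held 1 PU.1 core, 122 bases before the start, and a further start of *Mef2c* had 1 at 186 bases. No capitals overlap between motifs.
Inpp5d: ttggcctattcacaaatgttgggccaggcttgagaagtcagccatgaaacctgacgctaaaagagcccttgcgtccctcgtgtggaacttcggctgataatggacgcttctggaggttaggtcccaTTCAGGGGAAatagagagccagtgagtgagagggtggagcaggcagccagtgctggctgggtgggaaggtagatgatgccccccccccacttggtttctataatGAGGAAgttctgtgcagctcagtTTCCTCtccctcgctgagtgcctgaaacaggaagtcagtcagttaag
Plcg2: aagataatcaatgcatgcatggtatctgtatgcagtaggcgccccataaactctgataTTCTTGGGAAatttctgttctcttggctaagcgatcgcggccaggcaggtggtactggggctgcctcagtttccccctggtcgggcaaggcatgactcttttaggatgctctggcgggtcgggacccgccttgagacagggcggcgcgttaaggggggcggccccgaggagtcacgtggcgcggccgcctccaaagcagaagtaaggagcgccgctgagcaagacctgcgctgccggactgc
Mef2c: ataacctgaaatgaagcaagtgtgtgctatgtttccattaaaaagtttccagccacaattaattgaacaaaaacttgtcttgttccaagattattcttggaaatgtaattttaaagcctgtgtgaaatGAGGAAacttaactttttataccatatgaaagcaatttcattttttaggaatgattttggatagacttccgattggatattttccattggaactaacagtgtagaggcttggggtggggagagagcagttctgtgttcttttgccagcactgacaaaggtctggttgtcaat
Of 32851 RefSeq windows of this length, 6.95% held the STAT6 spacing and 28.3% the PU.1 core, and over the 11 windows of the 7 risk genes searched (all but *Bin1* and *Ptk2b*) 2 and 3 did. By gene, 2164 and 8446 of 27025 genes had a match, and 2 and 2 of the 7 risk genes, and a match is a run of letters, not a measured site.

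The first comparison asked whether the risk genes differ in level with the *Trem2* genotype. None of the 9 passed the joint test of the genotype terms (adjusted p from 0.119 to 0.984, limma F-test with Benjamini-Hochberg adjustment), which called 185 of the 11204 genes, or 1.65%. At an unadjusted p under 0.05 stood 3 of the 9, *Mef2c*, *Bin1* and *Ptk2b*, beside 16.1% of all genes. Averaged over both treatments, 7 of the 9 were lower in KI and 2 higher (*Sorl1* and *Abca7*, the latter turning negative under quantile normalization), with a median log2 difference of -0.32, while the median over all genes tested was 0.13 and 36.9% of them were lower. In untreated cultures, every KI library lay below every WT library for 3 of the 9 genes, which was the case for 4.55% of the genes tested. After IL-4 this held for 4 of the 9, namely *Inpp5d*, *Ptk2b*, *Rin3* and *Mef2c*, against 5.79% of the genes tested, and within both treatments for *Ptk2b* and *Mef2c*, against 1.23%.

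**Figure D2:**
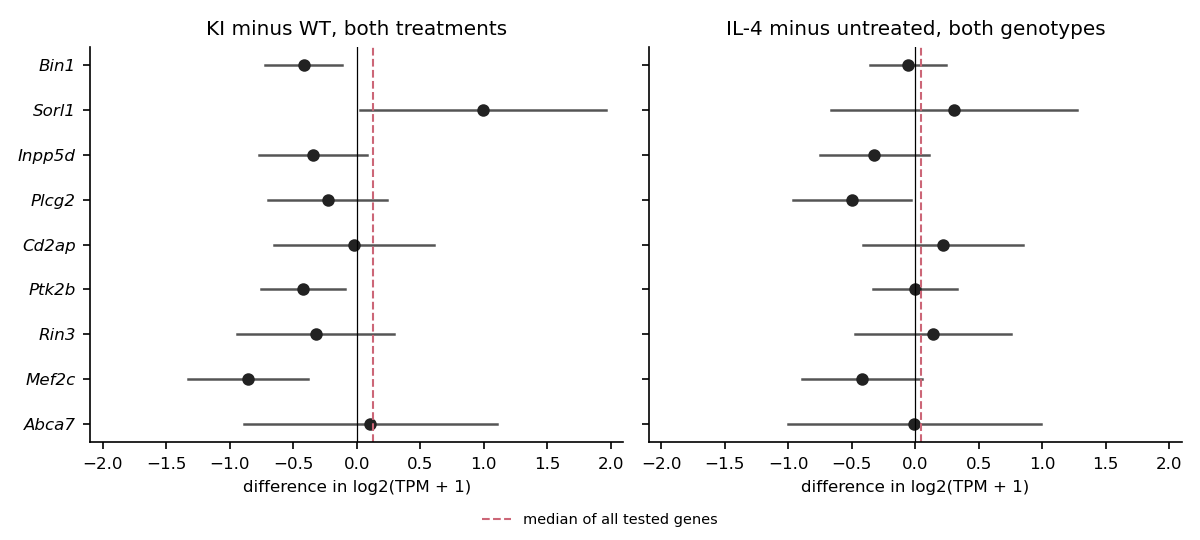
Differences in log2(TPM + 1) for each gene, KI minus WT averaged over both treatments on the left and IL-4 minus untreated averaged over both genotypes on the right; points are estimates from 12 libraries, bars are 95% confidence intervals not adjusted for the number of genes, and dashed lines are the median of all genes tested (0.13 and 0.04). The interval of *Mef2c* runs from -1.33 to -0.39 for genotype, and that of *Plcg2* from -0.97 to -0.03 for IL-4.

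*Mef2c* (ENSMUSG00000005583, chr13:83504034-83667080, plus strand, GRCm38) differed most among the risk genes that were lower in KI. Its level was 162, 152 and 99.0 TPM in untreated WT cultures and 56.5, 92.4 and 67.5 TPM in untreated KI cultures. After IL-4 it was 143, 73.0 and 84.9 TPM in WT and 67.2, 67.6 and 36.5 TPM in KI. The groups did not overlap within either treatment, although WT T33 after IL-4 fell below KI T22 before it. The log2 difference was -0.86 (SE 0.22), with an adjusted p of 0.119 in the joint test, and -0.92 in untreated and -0.79 in IL-4-treated cultures. The direct test of the averaged difference gave an adjusted p of 0.0404, where 5.13% of all genes were called. So *Mef2c* stood on either side of the threshold depending on which terms were tested, and it was at 0.178 with the culture as a replicate block.

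The microglial markers differed in the same direction. Of the 19 markers tested 5 passed the genotype test, where 1.65% of all genes did, and these 5 were lower in KI (*Aif1*, *C1qb*, *Csf1r*, *Fcrls* and *Itgam*). The median difference over the 19 was -0.65, and the mean difference of the marker levels was -0.63 on the log2 scale. Set against that mean, *Mef2c* had a difference of -0.23 on the log2 scale, whereas the other 8 risk genes had positive values, from 0.20 for *Ptk2b* and 0.21 for *Bin1* to 1.62 for *Sorl1*, as averages over both treatments. After IL-4 alone *Bin1* (-1.59 in WT and -1.61 in KI, log2 level minus marker mean) and *Rin3* (-5.35 and -5.57) were not higher in KI, and *Inpp5d* was level (-2.37 and -2.36). *Trem2* had -0.80 on the same footing. With the marker mean as a covariate the genotype difference of *Mef2c* was -0.13 (SE 0.30), that of *Bin1* -0.22 (SE 0.24) and that of *Ptk2b* -0.11 (SE 0.25). *Inpp5d* (0.42, SE 0.23), *Plcg2* (0.17, SE 0.36) and *Cd2ap* (0.15, SE 0.52) turned positive. *Sorl1* was at 0.54 (SE 0.79), *Rin3* at -0.65 (SE 0.50) and *Abca7* at 0.97 (SE 0.77). *Bin1*, *Ptk2b* and *Rin3* thus had the opposite sign to the averages after subtraction. The marker mean itself differed with genotype, and the study reports lower *Csf1r* and *C1qa*, both among the markers, with reduced *Trem2*. The fit therefore cannot separate marker level from genotype. In it 4 of all genes tested were called, none of them a risk gene.

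**Figure D3:**
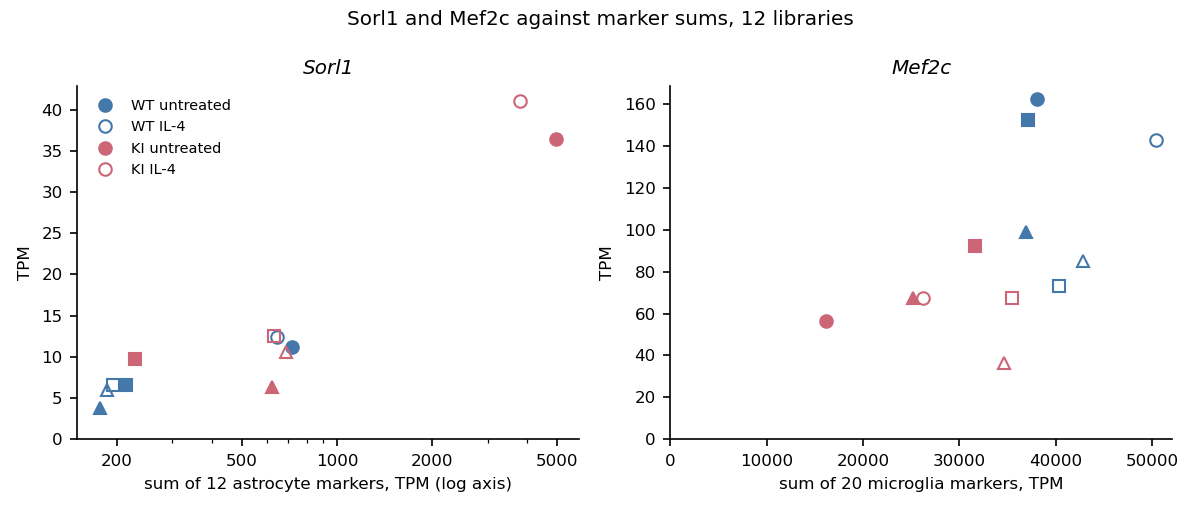
Left, *Sorl1* in TPM against the summed TPM of 12 astrocyte markers (log axis); right, *Mef2c* in TPM against the summed TPM of 20 microglia markers. Each of the 12 points is a library, filled when untreated and open after IL-4, blue for WT and red for KI, with circles for T13 and T15, squares for T33 and T22 and triangles for T43 and T32; both *Sorl1* libraries of T15 lie far to the right and at the top, and the KI libraries lie to the left of the WT libraries of the same treatment in the *Mef2c* panel.

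Among the signalling genes, *Ptk2b* (ENSMUSG00000059456, chr14:66153257-66281052, minus strand) was read at 81.7, 91.1 and 81.4 TPM in untreated WT and 42.5, 62.3 and 80.0 TPM in untreated KI cultures. With IL-4 it was 83.5, 78.6 and 78.4 TPM in WT and 53.1, 68.9 and 66.7 TPM in KI. Untreated KI T32 lay just under the lowest WT library, and T15 was the lowest library under both treatments. The log2 difference was -0.43 (SE 0.15, adjusted p = 0.296), and -0.25 without T15.

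*Inpp5d* (ENSMUSG00000026288, chr1:87620312-87720507, plus strand), the lipid phosphatase, did not separate the genotypes without IL-4: the levels were 124, 119 and 91.5 TPM in WT and 57.9, 136 and 117 TPM in KI, where T15 alone was low. After IL-4 they were 126, 90.6 and 84.0 TPM in WT and 61.0, 79.5 and 68.6 TPM in KI, with every KI library lower. The averaged log2 difference was -0.34 (SE 0.20, adjusted p = 0.558) and -0.11 without T15. *Plcg2* (ENSMUSG00000034330, chr8:117498291-117635142, plus strand), which cleaves a membrane phosphoinositide, had 44.8, 63.4 and 74.8 TPM in untreated WT and 28.6, 60.8 and 69.8 TPM in untreated KI cultures, and the genotypes overlapped. Its genotype difference was -0.23 (SE 0.22, adjusted p = 0.837), and 0.03 without T15, so its sign rested on that culture.

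In a list of 32 genes from receptor to phospholipase, 30 were tested, with a median log2 difference of -0.33. Past the threshold were 3 of them, beside 1.65% of all genes, and these 3 were lower in KI. They were *Trem2* itself, *Pik3ap1*, an adaptor for PI3-kinase (-1.08, SE 0.18, adjusted p = 0.0203), and *Ptpn6*, the phosphatase SHP-1 (-0.81, SE 0.16, adjusted p = 0.0407). Of the 17 adhesion kinase partners tested 2 passed: the integrin subunit *Itgam*, which also is a microglia marker, was lower in KI (-0.85, SE 0.16, adjusted p = 0.0408) and the focal adhesion gene *Tgfb1i1* higher (1.98, SE 0.38, adjusted p = 0.0395). The fibroblast and mural markers *Acta2* (2.11, SE 0.23) and *Tagln* (1.93, SE 0.26) moved with *Tgfb1i1* in the same direction, and their part in it was not tested.

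Among the endocytic genes, *Bin1* (ENSMUSG00000024381, chr18:32377230-32435737, plus strand), the abundant membrane-bending adaptor, read 170, 173 and 147 TPM in untreated WT and 146, 121 and 129 TPM in untreated KI cultures. The untreated groups did not overlap, though the closest libraries, WT T43 and KI T15, differed by less than the spread within either genotype. After IL-4 the levels were 204, 132 and 182 TPM in WT and 124, 140 and 92.3 TPM in KI, and the groups overlapped through WT T33 and KI T22. The log2 difference was -0.42 (SE 0.14, adjusted p = 0.237), and it stayed negative under all 20 alternatives, between -0.54 and -0.22. A gene on the opposite strand of *Bin1*, *A830052D11Rik*, was listed at 0 to 1.64 TPM. *Gm16214*, opposite *Sorl1*, was listed at 0 to 0.908 TPM, where the lowest *Sorl1* library had 3.77 TPM. The library kit does not mark strand, so reads in either overlap cannot be assigned.

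*Sorl1* (ENSMUSG00000049313, chr9:41964720-42124297, minus strand), the sorting receptor, was the only risk gene with a large positive value in KI, and 1 culture carried much of it. Untreated WT cultures had 11.2, 6.59 and 3.77 TPM and untreated KI cultures 36.4, 9.73 and 6.28 TPM. After IL-4 the values were 12.4, 6.51 and 5.96 TPM in WT and 41.0, 12.5 and 10.6 TPM in KI. T15 was the highest library under both treatments, and T32 lay within the WT range in each. The log2 difference was 0.99 (SE 0.45, adjusted p = 0.461) and 0.35 without T15, and with the astrocyte marker mean as a covariate, chosen after seeing the data, it was 0.06. T15 was also the culture with the high astrocyte marker sum, and its sums were highest for oligodendrocyte lineage markers (550 and 377 TPM, against 69.6 to 216 TPM in the other libraries) and neuron markers (65.3 and 75.5 TPM, against 6.83 to 42.6 TPM). *Olig1* was the 1 of 7 oligodendrocyte lineage markers tested that passed for genotype, beside 1.65% of all genes, and it was higher in KI (2.69, SE 0.52, adjusted p = 0.0438). The part of these other cells in the *Sorl1* values was not tested, and with T15 being a KI culture it cannot be told apart from genotype there. The genes most like *Sorl1* over the 12 libraries were *Gpr37l1* (Pearson's r = 0.97), *Lcat* (0.97) and *Scd1* (0.96), the first of which is a receptor typical of astrocytes.

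*Rin3* (ENSMUSG00000044456, chr12:102283048-102390855, plus strand), the exchange factor for early endosome GTPases, ran at 4.47, 7.73 and 12.3 TPM in untreated WT and 7.37, 6.74 and 10.9 TPM in untreated KI cultures, with KI inside the WT range. After IL-4 it was 11.8, 13.2 and 10.1 TPM in WT and 6.81, 5.25 and 7.87 TPM in KI, with no overlap. The genotype difference was 0.09 in untreated and -0.74 in IL-4-treated cultures on the log2 scale, or -0.32 on average (SE 0.29, adjusted p = 0.584), and the average was -0.19 without T22 and -0.21 without T43. *Cd2ap* (ENSMUSG00000061665, chr17:42792951-42876665, minus strand), the actin-linking adaptor, was low and even: 5.34, 3.63 and 5.32 TPM in untreated WT and 3.50, 5.24 and 4.005 TPM in untreated KI cultures, with a genotype difference of -0.02 (95% confidence interval -0.65 to 0.61). Of 25 endocytic sorting partners tested none was called by genotype, where 1.65% of all genes were, and their median difference was -0.05.

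*Abca7* (ENSMUSG00000035722, chr10:79996494-80015572, plus strand), the lipid transporter, had the widest spread between libraries, a 12.9-fold range from lowest to highest. Untreated WT cultures had 6.19, 3.89 and 4.55 TPM and untreated KI cultures 3.85, 2.07 and 11.8 TPM. The IL-4 libraries had 9.79, 0.916 and 6.32 TPM in WT and 4.88, 6.23 and 4.62 TPM in KI. The highest value came from a KI library and the lowest from a WT library, and the ranges overlapped under both treatments. The genotype difference was 0.10 with a 95% confidence interval from -0.89 to 1.10, which spans both signs. None of 13 lipid transport genes tested was called by genotype or IL-4, where 1.65% and 0.893% of all genes were.

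The second comparison asked whether the risk genes changed with IL-4, and none passed (adjusted p from 0.829 to 1.00, limma F-test), nor was any at an unadjusted p under 0.05, where 7.27% of all genes stood. The test called 100 of 11204 genes, or 0.893%. Over the 9 risk genes the median log2 change was -0.01, beside 0.04 for all genes tested, with 6 lower and 3 higher. The largest estimates were those of *Plcg2* (-0.50, SE 0.22, adjusted p = 0.829), *Mef2c* (-0.42, SE 0.22, adjusted p = 0.918; -0.28 without T33) and *Inpp5d* (-0.32, SE 0.20, adjusted p = 0.942). This fit leaves the pairing of libraries by culture unused. With the culture as a replicate block the SE were 0.17, 0.17 and 0.14 in that order. The adjusted p were then 0.449, 0.530 and 0.516 (limma F-test).

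These 3 genes did not have the same values of change in every culture. *Plcg2* went from 63.4 to 39.1 TPM in T33, from 74.8 to 38.8 TPM in T43, from 60.8 to 37.1 TPM in T22 and from 69.8 to 41.3 TPM in T32. In T13 it went from 44.8 to 45.1 TPM and in T15 from 28.6 to 29.3 TPM. The IL-4 libraries of all 6 cultures thus lay within 29.3 to 45.1 TPM, and the untreated libraries of T13 and T15 were already at or near that range. *Inpp5d* changed by -0.38, -0.12, -0.76 and -0.76 on the log2 scale in T33, T43, T22 and T32, and by 0.02 and 0.07 in T13 and T15. *Mef2c* changed by -1.05, -0.22, -0.45 and -0.87 in the same 4 cultures, by -0.18 in T13 and by 0.25 in T15.

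For *Plcg2* and *Inpp5d* the sample names set the same cultures apart, though not for *Mef2c*, which was also lower in T13: the libraries of T13 and T15 are named by treatment and those of the other 4 cultures by a number. A lower level with IL-4 in all 4 numbered cultures was seen for 3 of the 9 risk genes and for 7.13% of the genes tested; this split was noticed after the values were seen. Within those 4 cultures the IL-4 change was -0.76 for *Plcg2* (SE 0.17, adjusted p = 0.169), -0.51 for *Inpp5d* (SE 0.15, adjusted p = 0.330) and -0.65 for *Mef2c* (SE 0.22, adjusted p = 0.548), and all 3 missed the threshold. The cultures were set apart after these genes were seen to be lower in them, so these estimates describe cultures chosen for the pattern. No risk gene was higher in all 6 cultures, as 5.73% of the genes tested were. The median change over all genes tested was 0.04 in T13 and 0.03 in T15, and it ran from -0.16 to 0.17 in the other 4 cultures.

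**Figure D4:**
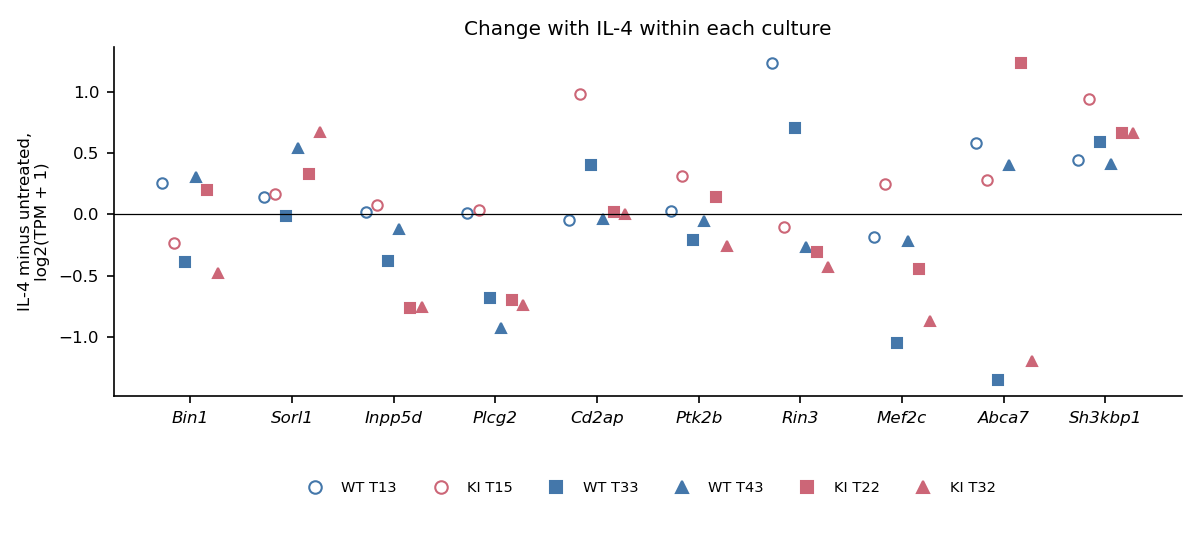
Change with IL-4 within each culture, as the difference in log2(TPM + 1) between its IL-4 and its untreated library, for the 9 risk genes and for *Sh3kbp1*, the paralogue of *Cd2ap*. Blue is WT and red KI, and open circles mark T13 and T15; for *Plcg2* these 2 sit at 0.01 and 0.03 while the other 4 lie between -0.93 and -0.68, and for *Sh3kbp1* all 6 lie above 0.

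The other risk genes showed no common direction. *Sorl1* was higher after IL-4 in 5 of 6 cultures (0.31 on average, SE 0.45), *Bin1*, *Cd2ap* and *Ptk2b* in 3 of 6, and *Abca7* in 4 of 6. After IL-4 *Cd2ap* read 5.14, 5.12 and 5.16 TPM in WT and 7.89, 5.31 and 4.004 TPM in KI cultures. Among the partner lists, to be read beside the 0.893% of all genes called, IL-4 raised *Ap2m1*, the medium subunit of the clathrin adaptor AP-2 (1.32, SE 0.09, adjusted p = 8.38e-06), 1 of 25 endocytic partners tested. It raised *Prkcd*, a protein kinase C that acts downstream of phospholipases (1.45, SE 0.17, adjusted p = 0.00115), 1 of 30 on that list. Of 17 adhesion partners tested, 2 Src-family kinases passed: *Fyn* rose (1.77, SE 0.22, adjusted p = 0.00259) and *Lyn* fell (-0.61, SE 0.11, adjusted p = 0.0391).

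The interaction test asked whether the IL-4 change differed between the genotypes. No gene was called (0%, limma), and 357 genes, 3.19%, had an unadjusted p under 0.05, with none of the 9 risk genes among them. The largest estimate was that of *Rin3*, which changed by 0.56 with IL-4 in WT and by -0.28 in KI cultures. The difference of -0.84 had a 95% confidence interval from -2.07 to 0.40 (adjusted p = 1.00), and within WT only T13 (1.23) and T33 (0.71) were higher after IL-4. The other 8 genes had interaction estimates between -0.32 and 0.23.

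The paralogues give the risk genes their family context. Of 21 paralogues 15 were tested, and none was called for genotype or IL-4, where 1.65% and 0.893% of all genes were. *Inpp5d*, *Plcg2*, *Ptk2b* and *Mef2c* had the highest mean level of their 4 families. In the other families a paralogue was higher by mean: *Sh3kbp1*, the other CD2AP-type adaptor, had 80.4 TPM beside 4.97 TPM for *Cd2ap*, and *Rin2* had group means of 78.4 to 98.0 TPM. *Sort1* (13.1 to 23.2 TPM as group means) overlapped *Sorl1* and *Bin2* (141 to 212 TPM) overlapped *Bin1*, while *Abca1* had group means of 18.0 to 24.9 TPM. *Sh3kbp1* was higher after IL-4 in 6 of 6 cultures, as were 5.73% of the genes tested. It read 90.05, 75.2 and 70.5 TPM in untreated and 123, 114 and 94.0 TPM in IL-4-treated WT cultures, and 32.9, 63.8 and 52.4 TPM and 64.1, 102 and 83.5 TPM in KI cultures. Its change of 0.62 (SE 0.18) did not pass the test (adjusted p = 0.335), nor did its genotype difference of -0.56 (SE 0.18, adjusted p = 0.205), although every untreated KI library lay below every WT library.

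*Bin3*, a further gene of the BIN family, was likewise lower in every untreated KI library, at 24.6 to 35.1 TPM against 42.3 to 56.5 TPM (log2 difference -0.76). After IL-4 its ranges overlapped, at 36.8 to 55.3 TPM in KI and 43.4 to 52.5 TPM in WT (-0.09), and the average of -0.42 (SE 0.16) did not pass (adjusted p = 0.189). *Ptk2*, the focal adhesion kinase and sister of *Ptk2b*, ran the other way, with a genotype difference of 1.30 (SE 0.47, adjusted p = 0.304) and 1.21 to 11.1 TPM in untreated WT and 8.16 to 24.7 TPM in untreated KI libraries. T15 was its highest library under both treatments, at 24.7 and 23.2 TPM, against 1.21 to 12.7 TPM in the other 10. *Plcg1* was listed at 0 in 1 untreated KI library, and *Inppl1* (SHIP2) had group means of 22.4 to 27.8 TPM against 69.7 to 111 TPM for *Inpp5d*. *Mef2a* and *Mef2d* had genotype differences of -0.14 and 0.06, beside -0.86 for *Mef2c*, and *Mef2b* was under 1 TPM in 11 of 12 libraries. None of the 17 genes tested among MEF2 cofactors and microglial lineage factors was called for genotype or IL-4, beside 1.65% and 0.893% of all genes.

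**Figure D5:**
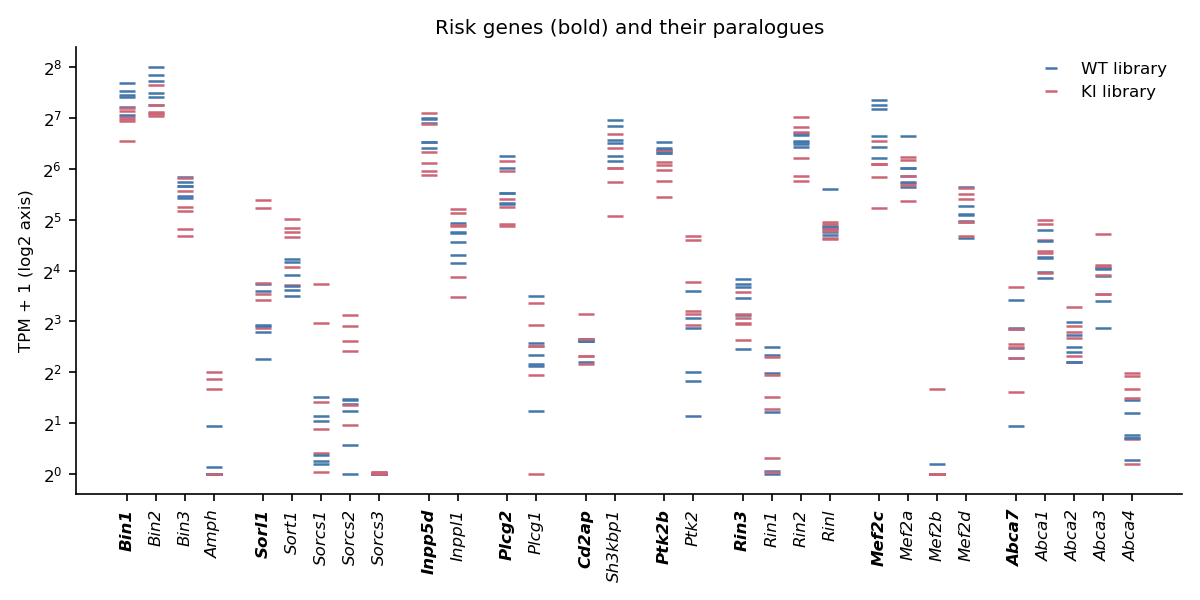
Level of each risk gene (bold) and its paralogues on a log2 axis of TPM + 1, with 1 dash per library, WT in blue and KI in red. *Inpp5d*, *Plcg2* and *Ptk2b* lie above their paralogues, *Sh3kbp1* lies far above *Cd2ap* and *Rin2* far above *Rin3*.

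Over the 12 libraries, which come from 6 cultures and so are not independent, the 9 risk genes did not vary as 1 group: the median Pearson's r over their 36 pairs was 0.12, from -0.83 for *Sorl1* with *Ptk2b* to 0.80 for *Bin1* with *Mef2c*. The gene most like *Mef2c* was *Ctla2a* (r = 0.94), that most like *Inpp5d* was the TGF-beta receptor *Tgfbr2* (0.95), that most like *Ptk2b* was *Ubash3b* (0.93), and that most like *Plcg2* was *Sh3bp2*, an adaptor that binds phospholipase C gamma (0.90). *Bin1* was closest to *Heca* (0.90), *Abca7* to *Necap1* (0.90), *Rin3* to *Plp2* (0.86) and *Cd2ap* to *Slc26a6* (0.84). Of 36 other Alzheimer's disease risk genes 30 were tested and 3 passed for genotype, beside 1.65% of all genes: besides *Trem2*, *Abi3*, an actin regulator, was lower in KI (-1.10, SE 0.16, adjusted p = 0.0101), *Fermt2*, an integrin activator, was higher (2.02, SE 0.39, adjusted p = 0.0407), and none was called for IL-4. The mural markers *Acta2* and *Tagln* were higher in KI as well, and their part in the value of *Fermt2* was not tested.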

How the data were processed

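Polyadenylated RNA was amplified with SMART-Seq v4 and made into libraries that do not mark strand. Per the methods, the authors used Trim Galore for trimming, Salmon with ENSEMBL GRCm38 transcripts for quantification and tximport for gene-level values; versions are not given in the sources used here. The deposited values are TPM. Read counts, which the authors tested with DESeq2, were not analysed here, so counting error is unknown and precision comes from the spread between cultures.

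Identifiers were matched to the GENCODE GRCm38 annotation (48350 of 48623 named). Values were taken as log2(TPM + 1), which understates changes of low genes, and genes with a mean above 1.5 were fitted with limma 3.58.1 in R 4.3.3 (genotype, IL-4 and their interaction, variance trend, all 12 libraries). Genotype and IL-4 were each tested with the interaction by F-test, and differences are averages over the other factor. Adjusted p-values are Benjamini-Hochberg over all genes tested, with a threshold of 0.05. SE are those of limma. Tables and plots used Python 3.11.15 and pandas 2.3.3. The fit takes both libraries of a culture as independent, so it overstates replication for genotype and leaves the pairing unused for IL-4. Alternatives were other pseudocounts, filters, scalings and contrasts, marker covariates, the replicate block and leaving out each culture.

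The genes named were the risk genes, their paralogues, *Trem2*, the genes most like each risk gene by Pearson's r, and list members past the threshold. Members and lists were chosen with earlier results of these data known. Cultures were paired by the number that sample names share. Deviations of paired libraries from their group means correlated at 0.079 to 0.38 over 11204 genes, and T22 had a higher value with another culture (0.19).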

Additional observations from a re-analysis of the deposited data

How the results depend on the processing

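The number of risk genes past the threshold was 0 for IL-4 and the interaction under every alternative tried, and for genotype it was 1, *Mef2c*, with the direct test of the averaged difference and 1 with the form of the sample names as a term (adjusted p = 0.0466), a setting chosen after seeing the data. The genotype difference of *Mef2c* ran from -1.03 to -0.13 over 20 alternatives. The replicate block by culture moved the genotype calls over all genes from 185 to 77 and the IL-4 calls from 100 to 240, and changed no call among the risk genes (0 called). Genotype calls over all genes ran from 2 to 754 and fell to 3 without T33, 16 without T43, 48 without T15 and 79 without T32; IL-4 calls ran from 45 to 240, with 56 without T13, 65 without T32, 51 without T33 and 46 without T43. The interaction called 4 genes without the filter and 1 in the 4 numbered cultures.

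Signs that turned belonged to estimates whose 95% confidence interval spanned 0, and the cause was not tested. For genotype these were *Inpp5d* (0.42), *Plcg2* (0.17) and *Cd2ap* (0.15) with the microglia covariate, *Plcg2* (0.15) and *Abca7* (-0.13) with the astrocyte covariate, *Abca7* with quantile normalization (-0.16), *Inpp5d* in the 4 numbered cultures (0.017), *Rin3* (0.094) and *Abca7* (-0.0100) in untreated cultures and *Cd2ap* in IL-4-treated cultures (0.093). For IL-4 they were *Ptk2b* with the astrocyte covariate (0.024), *Rin3* in the 4 numbered cultures (-0.074), *Bin1* in WT (0.058) and, in KI, *Ptk2b* (0.066), *Rin3* (-0.28) and *Abca7* (0.11). Leaving out 1 culture turned the genotype sign of *Cd2ap* without T13 (0.018), T32 (0.091) and T43 (0.018), range -0.10 to 0.09, of *Plcg2* without T15 (0.031) and of *Abca7* without T32 (-0.15) and T33 (-0.33). It turned the IL-4 sign of *Rin3* without T13 (-0.029), of *Bin1* without T32 (0.021) and T33 (0.056), of *Ptk2b* without T32 (0.075) and T33 (0.027) and of *Abca7* without T32 (0.32) and T33 (0.30). The median genotype difference of all genes, 0.13, became -0.06 under quantile normalization and 0.02 under median-ratio scaling.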
